A study of Arabidopsis thaliana with 8 samples.

Results

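The phenylpropanoid, flavonoid and anthocyanin pathway was followed through 30 listed loci, of 27655 loci in the expression table. They were chosen by locus rather than by a threshold on their values. They are the enzymes from phenylalanine to decorated anthocyanins, the transport protein TT19 and the regulators of the pathway. These loci were listed with earlier results of these data known. By role they were 5 general phenylpropanoid genes, 7 early flavonoid genes, 8 late genes that serve anthocyanins and 10 regulators. RNA was sequenced from shoot apices of Arabidopsis thaliana kept in short days at 23 °C and taken at ZT 8 (hours after lights on). The knockdown line carries pFD::amiR-PECT1, an artificial microRNA against PECT1 driven by the FD promoter, and was set against wild type at 10 and at 16 days of age, with 2 libraries in each of the 4 groups. FD is expressed in only some cells of the apex, and the labels do not say how many independent lines were used or whether separate cultures were used for the 2 libraries of each group. The p-values therefore measure the spread between these samples, which may be technical.

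Plants make flavonoids from phenylalanine. The general steps (PAL, C4H, 4CL) yield an activated cinnamic acid that also feeds lignin and sinapate esters, the early steps (CHS to FLS) yield flavonols, and the late steps from DFR onward yield the red and purple anthocyanins. In Arabidopsis the flavonol steps are driven mainly by the MYB factors MYB11, MYB12 and MYB111, and the late steps by a complex of a MYB such as PAP1, a bHLH factor such as TT8, GL3 or EGL3, and the WD-repeat protein TTG1, which the small MYB protein MYBL2 represses. The pathway is best known from seedlings and leaves under strong light, cold or sugar.

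PECT1, which encodes an enzyme of phosphatidylethanolamine synthesis and is the target of the microRNA, was at 35.3 and 37.1 RPKM (reads per kilobase of transcript, scaled to library size) in knockdown and 40.7 and 39.2 RPKM in wild-type apices at day 10. The day-16 values were 34.4 and 37.0 RPKM in knockdown and 40.4 and 41.3 RPKM in wild-type apices. Every knockdown value was below every wild-type value, but neither difference passed the test (log2 fold change -0.14 ± 0.15 and -0.19 ± 0.15, SE; limma, Benjamini-Hochberg adjusted p = 0.86 and 0.842). The steps in the low values put the depth of the libraries between 15.46 and 18.18 M reads, the lowest being replicate 1 of the knockdown at day 16. Of the apex markers, STM was at 6.31 to 17.5 RPKM and KNAT1 at 6.20 to 10.6 RPKM, while WUS and CLV3, which mark a few cells, were at no more than 0.23 and 0.72 RPKM. The 10 leaf mesophyll markers together reached 38228 to 52580 RPKM.

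At day 10 most late genes and the entry enzyme CHS were at lower levels in knockdown than in wild-type apices. DFR averaged 0.310 ± 0.113 RPKM in knockdown and 2.42 ± 0.297 RPKM in wild-type apices, and CHS averaged 16.5 ± 1.93 RPKM in knockdown and 39.8 ± 14.1 RPKM in wild-type apices (SD, n = 2 each). At day 16 both knockdown libraries were below both wild-type libraries for 9 of the 25 tested genes, against 25.7% of all genes tested. DFR, LDOX, CHS and FLS1 were among the 9. No difference between the genotypes passed an adjusted p of 0.05 for any gene of the pathway at either age or for the mean of both. In such bulk samples, fewer cells of a type and less RNA per cell cannot be told apart.

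Expression differed widely along the pathway. By mean RPKM over the 8 libraries the most abundant were C4H (45.2), UGT78D1 (26.0), CHS (23.4) and PAL2 (22.3). Of the 30 loci, 25 had at least 1 RPKM in at least 2 libraries and were tested. PAP1, PAP2, MYB12, MYB11 and TT8 did not reach that level and were not tested with this filter in place. DFR, UGT79B1, 5MAT and TT19 were under 1 RPKM in both knockdown libraries at day 10 and passed this filter through the other groups, so the counts over tested genes describe those genes and no more.

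**Figure D1:**
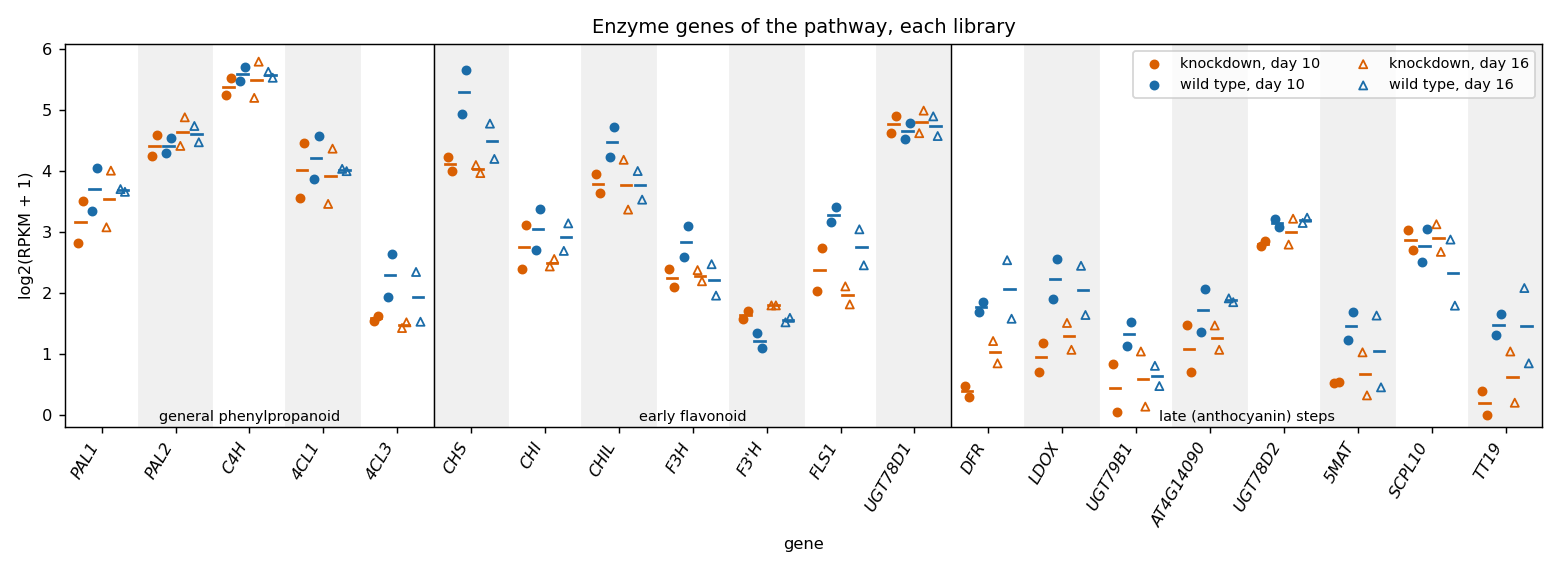
Level of the 20 enzyme and transport genes in each library as log2(RPKM + 1), in pathway order, with 1 point per library and a bar at the mean of the 2 libraries of each group. PAL1, PAL2, C4H and 4CL1 overlap between genotypes at both ages, whereas CHS, DFR, LDOX, 5MAT and TT19 at day 10 have both knockdown points below both wild-type points.

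To show the DNA just before the genes described here, the 250 bases upstream of the annotated start are printed for the most abundant early genes (UGT78D1 and CHS) and the most abundant late genes (UGT78D2 and SCPL10), with DFR added after its values were seen. The sequences come from RefSeq, assembly TAIR10.1, read 5′ to 3′ on the strand of the gene, where the start is the most upstream base of the gene record. UGT78D1 lies at chr1:10814362-10814611, plus strand, and CHS at chr5:4488226-4488475, plus strand. UGT78D2 lies at chr5:5609590-5609839, minus strand, SCPL10 at chr2:9791916-9792165, plus strand, and DFR at chr5:17166033-17166282, minus strand. Capitals mark CACGTG (the G-box, known to be bound by bZIP and bHLH factors) and ACCAACC (an AC element, known to be bound by MYB factors).
UGT78D1: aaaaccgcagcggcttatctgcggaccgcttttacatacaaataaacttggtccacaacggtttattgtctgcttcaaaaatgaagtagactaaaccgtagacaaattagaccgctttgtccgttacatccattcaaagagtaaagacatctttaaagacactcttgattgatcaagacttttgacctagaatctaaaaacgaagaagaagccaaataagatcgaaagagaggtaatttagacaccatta
CHS: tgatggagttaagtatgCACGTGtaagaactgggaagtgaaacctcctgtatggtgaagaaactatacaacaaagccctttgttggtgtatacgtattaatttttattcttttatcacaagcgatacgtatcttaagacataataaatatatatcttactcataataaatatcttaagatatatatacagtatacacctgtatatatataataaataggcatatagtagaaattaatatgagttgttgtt
UGT78D2: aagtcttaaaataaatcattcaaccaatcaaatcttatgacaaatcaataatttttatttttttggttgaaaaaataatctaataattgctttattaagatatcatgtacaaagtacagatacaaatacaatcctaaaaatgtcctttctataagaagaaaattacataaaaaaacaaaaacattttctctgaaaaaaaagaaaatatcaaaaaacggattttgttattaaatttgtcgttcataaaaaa
SCPL10: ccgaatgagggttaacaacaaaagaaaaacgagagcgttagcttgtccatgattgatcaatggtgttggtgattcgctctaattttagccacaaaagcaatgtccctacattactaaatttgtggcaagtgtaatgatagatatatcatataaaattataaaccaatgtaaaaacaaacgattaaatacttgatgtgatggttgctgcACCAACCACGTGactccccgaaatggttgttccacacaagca
DFR: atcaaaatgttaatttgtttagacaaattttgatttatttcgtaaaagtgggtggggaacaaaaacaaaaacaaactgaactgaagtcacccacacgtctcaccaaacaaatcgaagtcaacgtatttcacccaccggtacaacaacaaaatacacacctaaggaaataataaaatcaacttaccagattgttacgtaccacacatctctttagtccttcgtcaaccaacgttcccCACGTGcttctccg

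On both strands of these windows, CACGTG was found in 8 of the 30 genes and in 6.49% of all 27443 windows of that length. The early genes with it were CHS, CHIL and F3H (3 of 7) and the late genes were DFR, UGT79B1 and SCPL10 (3 of 8). The others were PAP2 and MYB12, and no general gene had it. In CHS it lay 233 to 228 bases before the start and in DFR 14 to 9 bases before it. ACCAACC was found in AT4G14090, SCPL10 and TT8 (2.69% of all windows), and in SCPL10 its last base is the first of the G-box. ACCTACC was found in 4CL3 (1.16% of all windows). The looser CANNTG, which includes the G-box, was found in 19 of the 30 genes and in 55.32% of all windows. A match is a run of letters and not a measured binding site.

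Of the 5 general phenylpropanoid genes, 4 overlapped between the genotypes at both ages. PAL1 (AT2G37040), a phenylalanine ammonia-lyase that opens the pathway, was at 6.04 and 10.4 RPKM in knockdown and 9.24 and 15.5 RPKM in wild-type apices at day 10, and at 7.46 and 15.1 RPKM in knockdown and 12.1 and 11.7 RPKM in wild-type apices at day 16. Its log2 fold change was -0.54 ± 0.35 at day 10 (SE; limma adjusted p = 0.778), about the size of that of F3H, but with overlap at both ages. The second lyase gene PAL2 (AT3G53260) was between 18.0 and 28.6 RPKM in all libraries, C4H (AT2G30490; cinnamate hydroxylase) between 35.9 and 54.7 RPKM, and 4CL1 (AT1G51680; a coumarate-CoA ligase) between 10.0 and 22.8 RPKM, each with overlap at both ages. 4CL3 (AT1G65060), the ligase linked to flavonoids, was the exception. It was at 1.91 and 2.09 RPKM in knockdown and 2.85 and 5.24 RPKM in wild-type apices at day 10, and at 1.69 and 1.87 RPKM in knockdown and 4.09 and 1.89 RPKM in wild-type apices at day 16. Both knockdown libraries were below both wild-type libraries at each age, by a margin of 0.02 RPKM at day 16. The log2 fold change was -0.71 ± 0.33 at day 10 and -0.47 ± 0.33 at day 16 (SE; adjusted p = 0.752 and 0.837, limma with Benjamini-Hochberg adjustment).

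Among the early genes, CHS, CHIL, F3H and FLS1 had both knockdown libraries below both wild-type libraries at day 10, and the other 3 did not. Of all genes tested, 21.0% lay that way at day 10 and 25.7% at day 16. CHS (AT5G13930), which joins coumaroyl-CoA and malonyl-CoA into the first flavonoid, was at 17.8 and 15.1 RPKM in knockdown and 29.8 and 49.7 RPKM in wild-type apices at day 10. The day-16 values were 16.2 and 14.7 RPKM in knockdown and 26.5 and 17.4 RPKM in wild-type apices. No knockdown library reached a wild-type library of its own age, and the wild-type libraries differed more among themselves than the knockdown libraries did. The log2 fold change was -1.18 ± 0.27 at day 10 (SE; limma adjusted p = 0.516) and -0.46 ± 0.27 at day 16 (adjusted p = 0.812), where it was -0.17 without wild-type replicate 1 and -0.75 without wild-type replicate 2.

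FLS1 (AT5G08640), the flavonol synthase that takes dihydroflavonols away from the anthocyanin branch, had about the same ratio at both ages. It was at 3.09 and 5.68 RPKM in knockdown and 7.94 and 9.64 RPKM in wild-type apices at day 10, and at 3.32 and 2.52 RPKM in knockdown and 7.27 and 4.49 RPKM in wild-type apices at day 16. The knockdown mean was 0.499 times the wild-type mean at day 10 and 0.497 times at day 16, with no overlap within either age. On the log2 scale the fold change was -0.90 ± 0.30 and -0.79 ± 0.30 (SE; limma adjusted p = 0.638 and 0.75).

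CHIL (AT5G05270), a chalcone isomerase-like protein that assists the first steps, was at 14.5 and 11.5 RPKM in knockdown and 17.7 and 25.6 RPKM in wild-type apices at day 10. F3H (AT3G51240), the hydroxylase that makes dihydroflavonols, was at 4.29 and 3.29 RPKM in knockdown and 5.02 and 7.58 RPKM in wild-type apices at that age. Neither overlapped at day 10 (log2 fold changes -0.68 ± 0.30 and -0.59 ± 0.27, SE; limma adjusted p = 0.744 and 0.752), and both overlapped at day 16. CHI (AT3G55120), which closes the ring of the chalcone, was at 4.28 and 7.69 RPKM in knockdown and 5.57 and 9.37 RPKM in wild-type apices at day 10. It did not overlap at day 16, where it was at 4.42 and 4.90 RPKM in knockdown and 5.47 and 7.85 RPKM in wild-type apices.

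F3'H and UGT78D1 were not lower in knockdown apices. F3'H (AT5G07990) adds the hydroxyl that turns kaempferol and pelargonidin precursors into quercetin and cyanidin precursors. It was at 1.98 and 2.28 RPKM in knockdown and 1.53 and 1.14 RPKM in wild-type apices at day 10, and at 2.48 RPKM in both knockdown libraries and 1.87 and 2.02 RPKM in wild-type apices at day 16. It was the only tested gene of the pathway with both knockdown libraries above both wild-type libraries, and this held at each age. In all 17467 genes tested, 19.9% lay that way at day 10 and 8.39% at day 16. Its log2 fold change was 0.43 ± 0.24 and 0.24 ± 0.24 (SE; limma adjusted p = 0.757 and 0.867). UGT78D1 (AT1G30530), a flavonol rhamnosyltransferase, ranged from 22.0 to 30.9 RPKM over the 8 libraries and overlapped at both ages.

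The lowest p among the late genes was that of DFR. DFR (AT5G42800), dihydroflavonol reductase, is the first enzyme of the anthocyanin branch. It was at 0.390 and 0.230 RPKM in knockdown and 2.21 and 2.63 RPKM in wild-type apices at day 10, an estimated 10.1 and 6.1 reads in knockdown and 58.2 and 70.8 reads in wild-type libraries. Its day-16 values were 1.32 and 0.8 RPKM in knockdown and 4.82 and 1.99 RPKM in wild-type apices. All 4 knockdown libraries were below all 4 wild-type libraries. The knockdown mean was 0.128 times the wild-type mean at day 10 and 0.311 times at day 16. On the log2 scale the difference was -1.38 ± 0.34 at day 10 (SE; limma adjusted p = 0.582), -1.03 ± 0.34 at day 16 (adjusted p = 0.668) and -1.21 ± 0.24 for the mean of both ages (adjusted p = 0.111, and 0.0501 to 0.459 over the alternatives), the lowest adjusted p of the 25 tested genes in any genotype contrast. The day-16 value was -0.55 without wild-type replicate 1 and -1.51 without wild-type replicate 2.

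LDOX (AT4G22880), which makes anthocyanidins in the next steps, was the other gene with every knockdown library below every wild-type library. It was at 0.630 and 1.28 RPKM in knockdown and 2.73 and 4.91 RPKM in wild-type apices at day 10, and at 1.85 and 1.10 RPKM in knockdown and 4.46 and 2.12 RPKM in wild-type apices at day 16. Over all tested genes, 4.93% were lower in all 4 knockdown libraries than in all 4 wild-type libraries, against 2 of the 25. The log2 fold change of LDOX was -1.28 ± 0.36 at day 10, -0.75 ± 0.36 at day 16 and -1.02 ± 0.25 for the mean (SE; limma adjusted p = 0.613, 0.804 and 0.2). At day 16 it was -0.35 without wild-type replicate 1 and -1.16 without wild-type replicate 2.

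TT19 (AT5G17220), a glutathione transferase that carries anthocyanins toward the vacuole, was at 0.320 and 0 RPKM in knockdown and 1.48 and 2.16 RPKM in wild-type apices at day 10. These were an estimated 6.0 and 0 reads in knockdown and 28.1 and 41.9 reads in wild-type libraries, so the ratio of 0.0879 between the means, lower than that of DFR, rests on few reads. Its day-16 values were 1.06 and 0.15 RPKM in knockdown and 3.24 and 0.8 RPKM in wild-type apices, with overlap. The log2 fold change was -1.28 ± 0.43 at day 10 and -0.84 ± 0.43 at day 16 (SE; limma adjusted p = 0.651 and 0.811).

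The decorating enzymes were split. 5MAT (AT3G29590), which adds a malonyl group to anthocyanins, was at 0.440 and 0.460 RPKM in knockdown and 1.36 and 2.23 RPKM in wild-type apices at day 10. UGT79B1 (AT5G54060), which adds xylose, was at 0.780 and 0.030 RPKM in knockdown and 1.19 and 1.88 RPKM in wild-type apices at that age. UGT78D2 (AT5G17050), a glucosyltransferase that serves flavonols and anthocyanidins, was at 5.81 and 6.27 RPKM in knockdown and 8.28 and 7.51 RPKM in wild-type apices. These 3 genes had no overlap at day 10, where 21.0% of all genes tested were lower in this way, and overlapped at day 16. Their log2 fold changes at day 10 were -0.93 ± 0.41, -0.89 ± 0.39 and -0.34 ± 0.21 (SE; limma adjusted p = 0.742, 0.737 and 0.776).

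AT4G14090, annotated as a UDP-glycosyltransferase superfamily protein, overlapped at day 10, with 1.78 and 0.63 RPKM in knockdown and 1.58 and 3.18 RPKM in wild-type apices, and not at day 16. The day-16 values were 1.77 and 1.10 RPKM in knockdown and 2.77 and 2.61 RPKM in wild-type apices (log2 fold change -0.61 ± 0.34, SE; limma adjusted p = 0.811). SCPL10 (AT2G23000), a serine carboxypeptidase-like acyltransferase, was the late gene with no lower level in knockdown apices. Its values were 7.23 and 5.56 RPKM in knockdown and 4.68 and 7.30 RPKM in wild-type apices at day 10, and at 7.76 and 5.40 RPKM in knockdown and 6.36 and 2.47 RPKM in wild-type apices at day 16, with overlap at both ages. Its day-10 log2 fold change of 0.10 ± 0.36 (SE; limma adjusted p = 0.971) was -0.18 without wild-type replicate 1 and -0.07 without knockdown replicate 1.

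Counted over the tested genes, limma called none of the 25 at day 10, against 0.0744% of all genes tested, none at day 16, against 0.115%, and none for the mean of both ages, against 0.246%. A second test, voom on estimated reads, called none of the 25 either. At an unadjusted p under 0.05, 9 of the 25 were lower at day 10 (3.54% of all genes), 2 at day 16 (4.96%) and 10 for the mean (8.13%), and none was higher. The 9 at day 10 were CHS, CHIL, FLS1, DFR, LDOX, UGT79B1, 5MAT, TT19 and MYBL2, and the 2 at day 16 were DFR and FLS1. The day-10 count was 2 without wild-type replicate 2 and 4 without knockdown replicate 2. The day-16 count was 0 without wild-type replicate 1, 7 without wild-type replicate 2 and 1 without knockdown replicate 2. Both knockdown libraries lay below both wild-type libraries for 13 of the 25 at day 10 (21.0% of all genes) and for 9 at day 16 (25.7%). The list was drawn up with earlier results of these data known. These counts and the medians that follow therefore describe it and are no independent support.

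The median log2 fold change over the 25 was -0.54 at day 10, against -0.02 over all genes, and -0.19 at day 16, against -0.11. By role the day-10 medians were -0.21 for general, -0.59 for early, -0.91 for late genes and -0.07 for tested regulators. At day 16 they were -0.10, 0.01, -0.49 and -0.27 in the same order of roles. At both ages 7 of the 8 late genes were negative, with SCPL10 the exception. Because 1 was added to each RPKM before taking logs, the folds of genes near or under 1 RPKM, most of them late genes, come out too small.

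**Figure D2:**
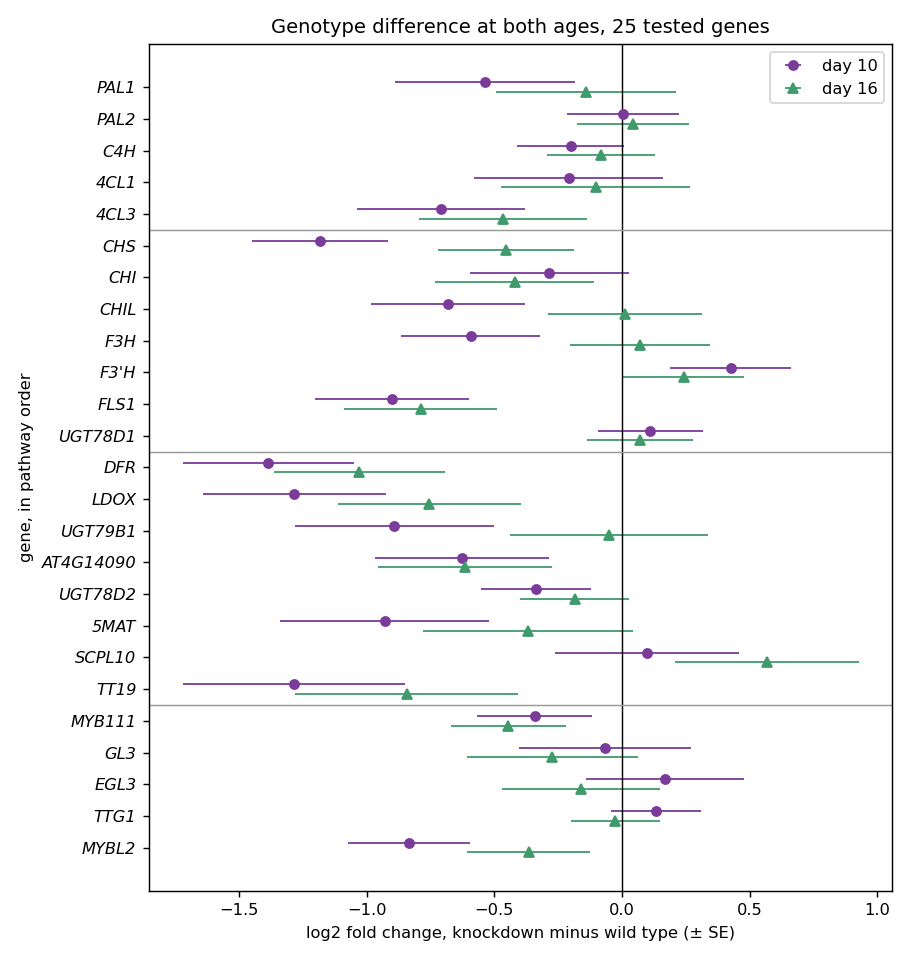
Log2 fold change on log2(RPKM + 1), knockdown minus wild type, for the 25 tested genes in pathway order, with points at the limma estimate and bars of 1 SE at day 10 and day 16. DFR, LDOX, TT19 and CHS lie farthest to the left at day 10, and no gene passed an adjusted p of 0.05.

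The authors' deposited table of genes lower in the knockdown line at day 10 holds 331 loci, against 27655 in the expression table. This table of lower genes holds 5 of the 30. In it CHS has a fold of -2.35 in the authors' deposited table (p = 4.32e-06, as the authors reported), DFR of -7.62 (1.25e-05), LDOX of -3.93 (0.00059), TT19 of -10.45 (0.00127) and 5MAT of -3.87 (0.02), the minus sign marking lower genes. The authors' deposited table for day 16 holds 213 lower loci, of which DFR is the one from this pathway, with a fold of -2.9 (p = 0.01, as the authors reported). The smallest fold is 2.0 in size in both of these tables of lower genes. The authors' deposited tables of higher genes, with 320 loci at day 10 and 209 at day 16, hold none of the 30. What test the authors used for these p-values was not given in the sources used here.

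Early and late steps were then compared within each library, as the mean of log2(RPKM + 1) over the 7 early genes and over the 8 late genes. The late level was 1.28 and 1.04 in knockdown and 1.79 and 2.19 in wild-type libraries at day 10, and 1.65 and 1.19 in knockdown and 2.18 and 1.49 in wild-type libraries at day 16. The early level was 3.03 and 3.18 in knockdown and 3.36 and 3.74 in wild-type libraries at day 10, and 3.09 and 2.96 in knockdown and 3.35 and 3.07 in wild-type libraries at day 16. Both levels were separate between genotypes at day 10, and at day 16 both overlapped. Late minus early was -1.76 and -2.13 in knockdown and -1.56 and -1.55 in wild-type libraries at day 10, and -1.44 and -1.76 in knockdown and -1.16 and -1.58 in wild-type libraries at day 16. The late genes were lower relative to the early genes in both day-10 knockdown libraries than in both wild-type libraries, and the genotypes overlapped at day 16. The mean difference of -0.39 at day 10 was -0.20 without knockdown replicate 2 and -0.57 without knockdown replicate 1. It was -0.89 with 0.25 and 0.01 with 4 added to the RPKM in place of 1, so its size is set by how the low late values are treated.

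**Figure D3:**
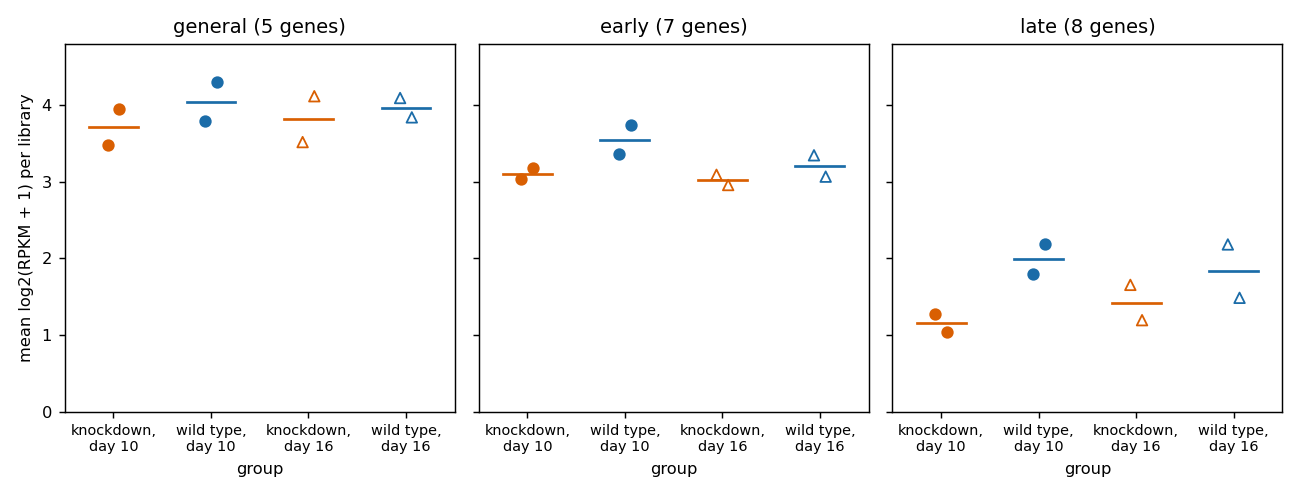
Mean log2(RPKM + 1) per library over the general, early and late genes, with 1 point per library and a bar at the mean of each group. The late level at day 10 is 1.28 and 1.04 in knockdown and 1.79 and 2.19 in wild-type libraries, and the general level overlaps at both ages.

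The late level also moved with some leaf light-harvesting transcripts between replicates. LHCB2.1, a chlorophyll-binding protein of leaf cells, was at 236 and 106 RPKM in knockdown and 260 and 495 RPKM in wild-type apices at day 10, and at 272 and 118 RPKM in knockdown and 424 and 117 RPKM in wild-type apices at day 16. In each of the 4 groups the library with more LHCB2.1 had the higher late level, and the same held for CAB2, CAB3, LHB1B2 and the sum of the 10 mesophyll markers. CAB1, LHCA1, RBCS3B, RBCS1B and RCA followed the late level in 3 of the 4 groups, and RBCS1A in 2. The early level followed LHCB2.1 in 3 of the 4 groups and the general level in 2. At day 10, 9 of the 10 mesophyll markers were negative in the genotype contrast (median log2 fold change -0.24), their sum was 52580 and 40003 RPKM in knockdown and 49910 and 51528 RPKM in wild-type libraries, and none passed the test. LHCB2.1 is also in the authors' deposited table of genes lower at day 10, with a fold of -2.11 (p = 0.03). The part of leaf content in the late gene difference was not tested.

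**Figure D4:**
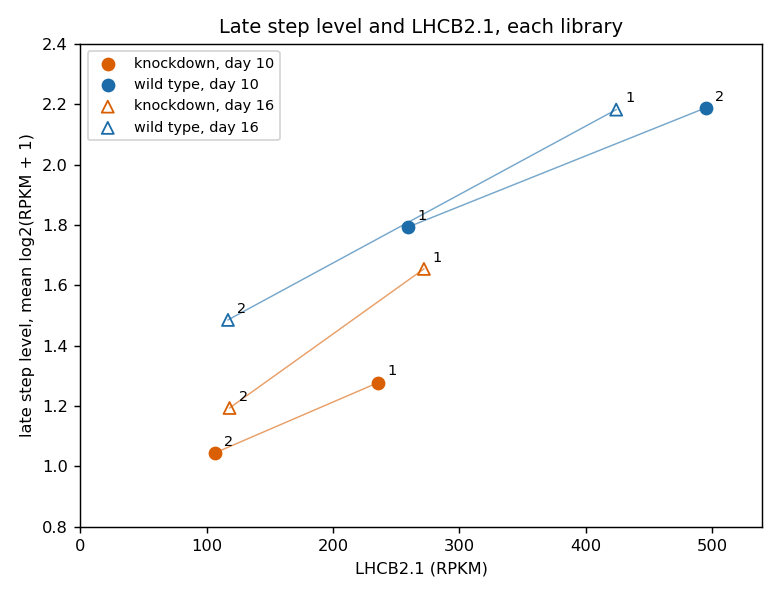
Late step level (mean log2(RPKM + 1) over 8 genes) against LHCB2.1 in RPKM for each of the 8 libraries, numbered by replicate, with a line joining the 2 libraries of a group. The line of each group goes up with LHCB2.1, and the part of leaf content in the late level was not tested.

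The other marker lists were also summed at day 10. The 6 epidermis markers summed to 3304 and 3178 RPKM in knockdown and 3206 and 3230 RPKM in wild-type libraries, with 4 of 6 negative. The 4 trichome markers summed to 20.03 and 26.56 RPKM in knockdown and 16.4 and 20.2 RPKM in wild-type libraries. The 10 vascular markers summed to 253 and 243 RPKM in knockdown and 238 and 222 RPKM in wild-type libraries, with 2 of 10 negative, and the 6 meristem markers to 15.6 and 21.0 RPKM in knockdown and 14.6 and 13.4 RPKM in wild-type libraries. The vascular and meristem sums were higher in both knockdown libraries, and the epidermis and trichome sums overlapped. The 4 root markers summed to 732 and 731 RPKM in knockdown and 747 and 952 RPKM in wild-type libraries, nearly all of it PYK10, the only one above 1 RPKM. The part of these cell types in the late gene difference was not tested. No marker was at 0 in all 8 libraries.

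Of the regulators of the anthocyanin branch, PAP1, PAP2, TT8 and GL3 were scarce in every group, while EGL3, TTG1 and MYBL2 were not. PAP1 (AT1G56650), the MYB factor known to activate the late genes, was at 0 RPKM in both knockdown libraries and 0.050 and 0.460 RPKM in wild-type libraries at day 10, and at 0 and 0.650 RPKM in knockdown and 0.1 and 0 RPKM in wild-type libraries at day 16. PAP2 (AT1G66390), its close relative, was listed at 0 in all 8 libraries. TT8 (AT4G09820), the bHLH partner, was at 0.090 RPKM in both knockdown libraries and 0.170 and 0.620 RPKM in wild-type libraries at day 10, and at 0.260 and 0.160 RPKM in knockdown and 0.310 and 0.230 RPKM in wild-type libraries at day 16. PAP1 and TT8 had both knockdown libraries below both wild-type libraries at day 10, and overlapped at day 16. The share of 21.0% lower in this way at day 10 is over the genes tested, which do not include PAP1 or TT8. At day 10 TT8 had an estimated 3.1 and 3.1 reads in knockdown and 5.9 and 22.0 in wild-type libraries. PAP1 had 1.0 and 9.0 in wild-type libraries. These genes did not reach the level for testing, and differences on so few reads were not tested.

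The other partners of the complex showed no separation by genotype. GL3 (AT5G41315), a bHLH factor also known from trichomes, was between 0.070 and 1.10 RPKM, and EGL3 (AT1G63650), its relative, between 1.41 and 3.34 RPKM over the 8 libraries. TTG1 (AT5G24520), the WD-repeat protein, was between 13.6 and 20.1 RPKM. All 3 overlapped between genotypes at both ages.

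MYBL2 (AT1G71030), the repressor of the complex, was well expressed and at a lower level in knockdown apices. Its values were 12.1 and 7.49 RPKM in knockdown and 15.1 and 21.1 RPKM in wild-type apices at day 10, and at 17.8 and 18.7 RPKM in knockdown and 23.7 and 23.8 RPKM in wild-type apices at day 16. The genotypes did not overlap within either age, where 21.0% (day 10) and 25.7% (day 16) of all genes tested were lower in this way. Its log2 fold change was -0.83 ± 0.24 at day 10 and -0.37 ± 0.24 at day 16 (SE; limma adjusted p = 0.614 and 0.833). Knockdown replicate 2 at day 10 was the lowest library both for MYBL2 (7.49 RPKM) and for the late level (1.04).

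Of the flavonol MYB factors MYB111 (AT5G49330) was the one with reads in every library. It was at 3.42 and 3.61 RPKM in knockdown and 4.64 and 4.8 RPKM in wild-type apices at day 10, and at 1.47 and 1.99 RPKM in knockdown and 2.73 and 2.67 RPKM in wild-type apices at day 16. It was lower without overlap within either age, as were 21.0% (day 10) and 25.7% (day 16) of all genes tested. The log2 fold change of MYB111 was -0.34 ± 0.22 and -0.45 ± 0.22 (SE; limma adjusted p = 0.778 and 0.811). MYB12 (AT2G47460) was at no more than 0.370 RPKM and MYB11 (AT3G62610) at no more than 0.170 RPKM in any library.

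**Figure D5:**
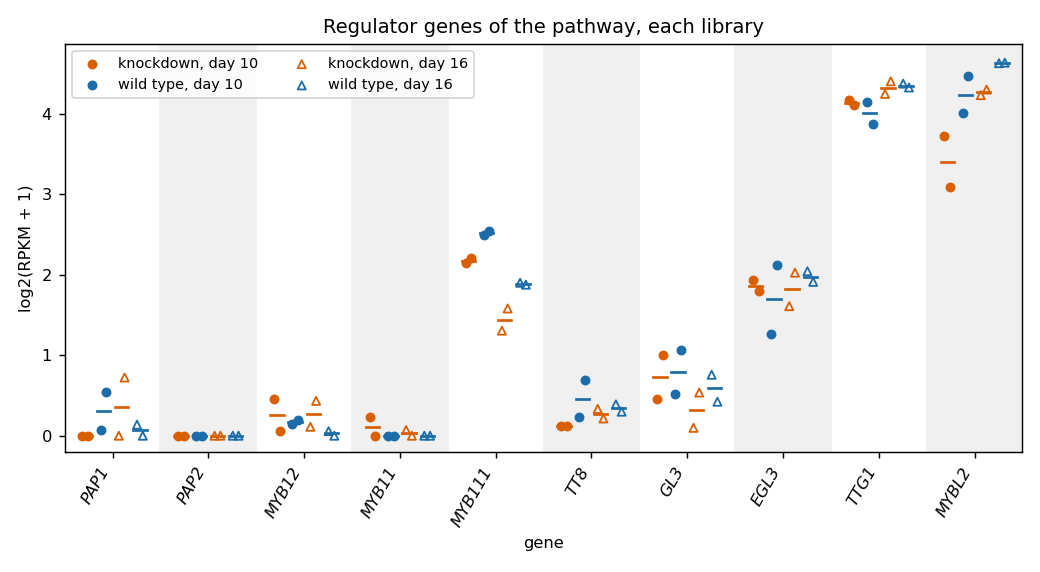
Level of the 10 regulator genes in each library as log2(RPKM + 1), with 1 point per library and a bar at the mean of the 2 libraries of each group. MYB111 and MYBL2 have both knockdown points below both wild-type points at each age, and PAP1, PAP2, MYB12, MYB11 and TT8 lie near 0 in every group.

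Whether the genotype difference depended on age was asked by the interaction. With all libraries it was positive for all 8 late genes (median 0.46 on the log2 scale, against -0.10 over all genes). This rests on 1 library, since without wild-type replicate 2 of day 16 only 3 of the 8 were positive (median -0.02), and DFR was at -0.13, TT19 at -0.18 and 5MAT at -0.03. None of the 25 genes passed (limma adjusted p = 1 for each), none had an unadjusted p under 0.05, and 0% of all genes were called. The largest were UGT79B1 (0.84 ± 0.55, SE), CHS (0.73 ± 0.38) and CHIL (0.69 ± 0.43).

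Between the ages, MYB111 and TTG1 were the genes whose libraries separated fully. MYB111 was lower in all 4 day-16 libraries than in all 4 day-10 libraries, as were 2.63% of all genes, with a log2 fold change of -0.73 ± 0.22 in knockdown and -0.63 ± 0.22 in wild-type apices (SE; limma adjusted p = 0.323 and 0.549). TTG1 was higher in all 4 day-16 libraries (18.0 and 20.1 RPKM in knockdown, 19.71 and 19.03 RPKM in wild-type) than in all 4 day-10 libraries (16.99 and 16.16 RPKM in knockdown, 16.6 and 13.6 RPKM in wild-type), as were 5.18% of all genes. Its log2 fold change was 0.19 ± 0.18 in knockdown and 0.35 ± 0.18 in wild-type apices (SE; limma adjusted p = 0.879 and 0.702). In wild type CHS averaged 22.0 ± 6.43 RPKM at day 16 and 39.8 ± 14.1 RPKM at day 10, while in knockdown apices it averaged 15.4 ± 1.06 RPKM at day 16 and 16.5 ± 1.93 RPKM at day 10 (SD, n = 2 each).

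In knockdown apices MYBL2 averaged 18.2 ± 0.651 RPKM at day 16 and 9.82 ± 3.29 RPKM at day 10 (log2 fold change 0.86 ± 0.24, SE; limma adjusted p = 0.269), and in wild type 23.8 ± 0.0849 RPKM at day 16 and 18.1 ± 4.29 RPKM at day 10 (0.39 ± 0.24; adjusted p = 0.742; SD, n = 2 each). DFR averaged 1.06 ± 0.368 RPKM at day 16 and 0.310 ± 0.113 RPKM at day 10 in knockdown apices (0.64 ± 0.34; adjusted p = 0.654). None of the 25 passed the age contrast in knockdown, where limma called 0.269% of all genes, or in wild type, where it called 0.223%, and voom called none of them. At an unadjusted p under 0.05, CHS, CHIL, F3H and MYB111 were lower at day 16 in wild type (4 of 25, against 1.91% of all genes). This count was 0 without wild-type replicate 2 of day 10, 0 without wild-type replicate 2 of day 16 and 6 without wild-type replicate 1 of day 16, and the median over the tested genes was -0.13 with all libraries and 0.15, 0.05 and -0.22 without them. In knockdown apices MYB111 was lower (3.86% of all genes) and MYBL2 higher (4.68%).

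Within a group, the replicates differed in a shared direction for many genes of the pathway. The share of all genes doing so in each group was not counted. Replicates also differed over all genes, where the day-16 genotype median was -0.24 without knockdown replicate 2 and 0.01 without knockdown replicate 1. All 5 general genes had more in replicate 2 than in replicate 1 in both knockdown groups and in wild type at day 10, and less in wild type at day 16. Of the 8 late genes, 7 had more in replicate 2 in wild type at day 10, and 7 had less in replicate 2 in each day-16 group. In knockdown at day 10 the late genes went both ways, from -0.789 for UGT79B1 to 0.484 for LDOX (log2, replicate 2 minus replicate 1). CHI was the only tested gene with replicate 2 above replicate 1 in all 4 groups, as were 15.3% of all genes.

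Neighbouring branches were listed to see whether they shared these differences, and none of their genes passed in any of the 6 contrasts. Of 12 lignin genes 11 were tested, and COMT1, CCoAOMT1 and FAH1 were lower at day 10 at an unadjusted p under 0.05 (3 of 11, against 3.54% of all genes). COMT1, a caffeate methyltransferase of lignin synthesis, was at 55.5 and 48.3 RPKM in knockdown and 69.2 and 85.2 RPKM in wild-type apices at day 10 (log2 fold change -0.56 ± 0.18, SE; limma adjusted p = 0.638), and CAD4, a cinnamyl alcohol dehydrogenase that was not among these 3, at 17.2 and 14.4 RPKM in knockdown and 18.8 and 25.5 RPKM in wild-type apices. Both genes had no overlap at day 10, where 21.0% of all genes tested were lower in this way. Of 5 sinapate genes 4 were tested and 1, SCPL9, was lower at that p at day 10 (against the same 3.54%). SCPL9 was at 6.67 and 5.21 RPKM in knockdown and 8.12 and 10.2 RPKM in wild-type apices (-0.55 ± 0.24, SE; limma adjusted p = 0.736), and UGT84A2, which glucosylates sinapate, at 11.9 and 15.2 RPKM in knockdown and 14.2 and 18.9 RPKM in wild-type apices.

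Of 8 proanthocyanidin genes, which serve the seed coat, only TTG2 was tested, at 2.06 and 3.84 RPKM in knockdown and 3.13 and 3.71 RPKM in wild-type apices at day 10. Of 5 other flavonoid genes 3 were tested and 1 was lower at an unadjusted p under 0.05 at day 10, again against 3.54%. This was RHM1, which supplies the rhamnose donor of flavonol glycosides, at 13.7 and 13.9 RPKM in knockdown and 18.5 and 27.7 RPKM in wild-type apices (-0.68 ± 0.27, SE; limma adjusted p = 0.712). FLS3, a relative of FLS1, was at 0.670 and 1.20 RPKM in knockdown and 0.620 and 2.09 RPKM in wild-type apices.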

How the data were processed

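RNA was measured in 8 libraries, 2 for each genotype and age. The authors deposited RPKM values, per the file headers, although the file is named for RPM; the build is TAIR10, per the submitters' processing notes, and aligner and counter: not given in the sources used here. Strand-specific libraries were made, per the labels' protocols. The authors' deposited tables of changed genes give a fold ratio for higher genes, a fold with a minus sign (a signed score) for lower genes, and a p-value, per the file headers.

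The 17467 genes that reached 1 RPKM in 2 or more libraries were tested with limma 3.58.1 (R 4.3.3, intensity trend) on log2(RPKM + 1), with 1 coefficient per group, two-sided, Benjamini-Hochberg adjusted over all tested genes, threshold 0.05. The 4 groups share 1 estimate of the spread (4 residual and 5.8 prior degrees of freedom). The fit was tested on simulated data. Steps in the low values gave the depths, but only 76.5% to 86.4% of them came within 0.1 of whole reads, which makes the reads estimates, used for voom as an alternative, and no count test was run as the leading one. Replicates of a group differed by more than sampling noise (chi-square per degree of freedom 20.3 to 33).

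The 30 genes and all lists were chosen with earlier results of these data known. All 30 genes are accounted for; of each other list with no call, the 2 genes with the smallest p in the mean genotype contrast are named. Promoters follow a rule of level, with DFR added. Names, positions and sequences come from RefSeq TAIR10.1, which matched 27445 of 27655 loci, and 1 listed locus was dropped as its symbol did not match. Alternatives were the pseudocount, the filter, scaling, voom, a replicate block and leaving out each library.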

Additional observations from a re-analysis of the deposited data

How the results depend on the processing

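No gene of the pathway passed in any of the 6 contrasts under any of the 16 alternatives, and of 721 alternative values of 46 named fold changes 717 kept direction and side of the threshold. The 4 that changed sign came from leaving out 1 library. The log2 fold change of SCPL10 at day 10 ran from -0.18 (without wild-type replicate 1) to 0.37 and was -0.07 without knockdown replicate 1. That of 5MAT at day 16 ran from -0.96 to 0.22 (without wild-type replicate 1), and that of UGT78D2 at day 16 from -0.40 to 0.026 (without knockdown replicate 1). The counts at an unadjusted p under 0.05, added after seeing the data, were 2 to 11 (day 10), 0 to 7 (day 16) and 6 to 10 (mean of both ages) when 1 library was left out, against 9, 2 and 10 with all 8. The mean count was 6 without wild-type replicate 2 of day 10 and also without wild-type replicate 1 of day 16. With at least 1 RPKM required in all 8 libraries, 18 of the genes were tested, 2 of them late genes. The day-16 count was then 1 and the mean count 5, with DFR, LDOX, TT19 and 5MAT among the genes no longer tested. With quantile normalization the day-16 count was 1, and the cause of that was not tested. Late minus early at day 10 was -0.89 with a pseudocount of 0.25 and 0.0058 with 4, by construction of the low values. The median over all genes at day 16 was -0.11 as deposited and 0.01 with median-of-ratios scaling, under which the median of the 25 genes was -0.06. With the replicate number as a block 0 of the 25 genes were called. Between genotypes, deviations of same-numbered libraries correlated at 0.185 (day 10) and 0.303 (day 16). Between ages they correlated at 0.329 in knockdown and -0.239 in wild type. Groups that differ in both correlated at 0.198 and 0.092. As each comparison has 2 pairs, the numbers were not taken as pairing. With 2 libraries a group, and late genes at few reads, small differences are not detectable.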

Other observations

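Lists of other regulators and of light signalling genes were measured in the same fit, and none of their genes passed in any contrast. Of 16 light signalling genes 14 were tested. At day 10, 10 of the 14 were negative in the genotype contrast (median log2 fold change -0.11, against -0.02 over all genes). At day 16, 7 were (median -4e-04, against -0.11). HY5 and BBX22 are named for their small p in the mean genotype contrast. HY5, a bZIP factor that promotes light responses and binds G-boxes, was at 3.42 and 2.21 RPKM in knockdown and 6.12 and 5.65 RPKM in wild-type apices at day 10, with no overlap, and at 3.35 and 2.94 RPKM in knockdown and 2.82 and 3.52 RPKM in wild-type apices at day 16, with overlap. The log2 fold change was -0.87 ± 0.24 at day 10 and -0.01 ± 0.24 at day 16 (SE; limma adjusted p = 0.613 and 0.998), and the authors' deposited table of lower genes at day 10 lists HY5 with a fold of -2.06 (p = 0.01). BBX22, a B-box cofactor of HY5, was at 16.2 and 13.0 RPKM in knockdown and 18.4 and 30.9 RPKM in wild-type apices at day 10, and at 19.7 and 15.5 RPKM in knockdown and 34.4 and 15.3 RPKM in wild-type apices at day 16.

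KFB20, a Kelch-repeat F-box protein, marks phenylalanine ammonia-lyase for degradation. All 5 listed Kelch-repeat F-box genes were tested, and they need not share that target. At day 10 all 5 were negative in the genotype contrast (median log2 fold change -0.71, against -0.02 over all genes). At day 16 only 2 were (median 0.14, against -0.11). AT2G44130 was at 1.51 and 1.56 RPKM in knockdown and 0 and 16.2 RPKM in wild-type apices at day 10. KFB20 was at 47.5 and 19.3 RPKM in knockdown and 59.3 and 67.5 RPKM in wild-type apices at day 10. Its day-16 values were 79.8 and 67.1 RPKM in knockdown and 57.0 and 58.7 RPKM in wild-type apices. At neither age did it overlap, being lower at day 10 (as were 21.0% of all genes tested) and higher at day 16 (8.39%). Its log2 fold change was -1.04 ± 0.32 and 0.33 ± 0.32 (SE; limma adjusted p = 0.638 and 0.866), and the interaction was 1.37 ± 0.46 (adjusted p = 1). AT1G23390, a Kelch repeat-containing F-box family protein, was at 126 and 45.7 RPKM in knockdown and 123 and 128 RPKM in wild-type apices at day 10. Knockdown replicate 2 at day 10 was the lowest library for KFB20 and AT1G23390, and also for KFB01 (3.02 RPKM) and KFB50 (40.6 RPKM). It was also the lowest for the late step level.

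Of 12 other regulators 10 were tested. CPC, a small MYB protein that also marks trichomes, was at 4.93 and 9.16 RPKM in knockdown and 3.41 and 3.91 RPKM in wild-type apices at day 10 (log2 fold change 0.74 ± 0.28, SE; limma adjusted p = 0.69). LBD38, a nitrogen-responsive repressor of anthocyanin genes, was at 33.1 and 34.9 RPKM in knockdown and 30.8 and 21.0 RPKM in wild-type apices (0.40 ± 0.23, SE; limma adjusted p = 0.764). Neither overlapped at day 10, and both were higher in knockdown, as were 19.9% of all genes tested. CPC and LBD38 are named for their small p in the mean genotype contrast and do not stand for the list. At day 10, 4 of the 10 tested genes were negative in the genotype contrast (median log2 fold change 0.05, against -0.02 over all genes). LBD37, also on the list, was at -0.27 and LBD39 at 0.08.

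AHA10, a proton pump of the proanthocyanidin list, appears in the authors' deposited table of genes higher at day 10, with a fold of 9.05 (p = 0.04). It was at 0.08 and 0.53 RPKM in knockdown and 0.06 and 0 RPKM in wild-type apices at that age, under the limit for testing.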
